A study of Mus musculus with 2 samples.

Results

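Stellate and stromal cells of the mouse liver were described in 2 single-cell RNA-Seq libraries, one from an undamaged liver and one from a liver 48 hours after partial hepatectomy (PHx48h). They were selected on measured values. A barcode was taken as a member when at most 30% of its unique molecular identifiers (UMIs, each counting 1 captured RNA molecule) came from mitochondrial genes, when at least 3 of the 10 genes Dcn, Col1a1, Col1a2, Col3a1, Colec11, Reln, Rgs5, Ecm1, Bgn and Lum were detected, when these genes made up at least 0.2% of its other UMIs, and when they had at least as many UMIs as 8 endothelial genes and as 5 macrophage genes. This gave 257 members of 60788 barcodes in all, 200 of 59202 without damage and 57 of 1586 at 48 h. Both libraries came from C57BL/6 mice on a normal diet, and hepatocytes were prepared by collagenase perfusion. The labels give an age of 10 to 12 weeks at surgery, and they list the surgery under protocol for both samples although the 0 h sample is described as healthy. Each library came from part of a single liver preparation of 1 mouse, so 48 h and undamaged differ by 1 library each, no difference has a replicate check, and no test between them was made. The sample was prepared as hepatocytes, so the stellate and stromal barcodes are those that came through that preparation.

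Hepatic stellate cells are the pericytes of the liver sinusoid. At rest they store vitamin A as retinyl esters made by lecithin retinol acyltransferase (Lrat), and they secrete growth factors such as Hgf, Gdf2 (BMP9) and Rspo3 that act on hepatocytes and endothelium. After injury they can become contractile, matrix-secreting myofibroblasts that express Acta2, Tagln and fibrillar collagens. Portal fibroblasts, vascular smooth muscle and the mesothelium of the capsule are the other stromal cells of the liver, and several of their matrix genes are shared with stellate cells.

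The members were deeper than the unselected barcodes of their library, and the PHx48h members were deeper than the undamaged members. Undamaged members held 1188 to 7732 UMIs with a median of 2052.5, against a median of 1425 in the 54661 barcodes of that library that met neither this rule nor the same rule written for endothelial or macrophage genes (the rest). PHx48h members held 4697 to 15520 UMIs with a median of 6899, against 5559.5 in the 714 barcodes of its rest. The member counts summed to 501583 (undamaged) and 394899 (PHx48h) non-mitochondrial UMIs, so that 1 UMI was worth 1.99 and 2.53 counts per 1000000 (CPM), respectively. The median mitochondrial share was 2.01% in undamaged and 4.51% in PHx48h members. Members made up 0.361% (95% Clopper-Pearson interval 0.313 to 0.415) of the undamaged and 6.94% (5.30 to 8.90) of the PHx48h barcodes under the mitochondrial limit. After each barcode was thinned to 1000 non-mitochondrial UMIs, 163 of 55326 undamaged barcodes (0.295%) and 46 of 821 PHx48h barcodes (5.60%) met the rule. The 2 libraries were called with very different numbers of barcodes, which sets the denominators of these shares. Of 148 barcodes that occurred in both libraries, none was a member in both. Intervals here and throughout cover counting error only.

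Close to the limits of the rule, the lowest stromal share of a member was 0.203% without damage and 0.217% at 48 h, and the highest share outside was 0.195% and 0.130% among 15 and 6 barcodes with at least 3 of the genes. The limit on endothelial and macrophage UMIs left out 66 undamaged and 13 PHx48h barcodes that met the other conditions, more than any other limit.

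Within the members the stromal genes stood far above the rest of their own library, which is what the rule selected. Dcn, the small collagen-binding proteoglycan decorin (ENSMUSG00000019929, chr10:97479609-97518143), was at 2921 CPM in undamaged members (95% Poisson interval 2773 to 3074) and at 7.31 CPM in the rest. In PHx48h members it was at 6250 CPM (6006 to 6501), against 9.72 CPM in the rest. A Dcn UMI was found in 190 of 200 undamaged members, up to 39 UMIs in 1 member with a median of 5, and in all 57 PHx48h members, from 4 to 156 UMIs with a median of 35. Lrat, which was not in the rule (ENSMUSG00000028003, chr3:82892579-82903973), was at 445 CPM in undamaged and 215 CPM in PHx48h members, against 1.49 and 0.353 CPM in the rest. In members thinned to 1000 UMIs, a Lrat UMI was found in 28.0% of undamaged members (21.9 to 34.8) and in 24.6% of PHx48h members (14.1 to 37.8). The same share was 0.130% of the undamaged rest and 0 of 714 barcodes of the PHx48h rest, which allows a share of up to 0.420%.

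**Figure D1:**
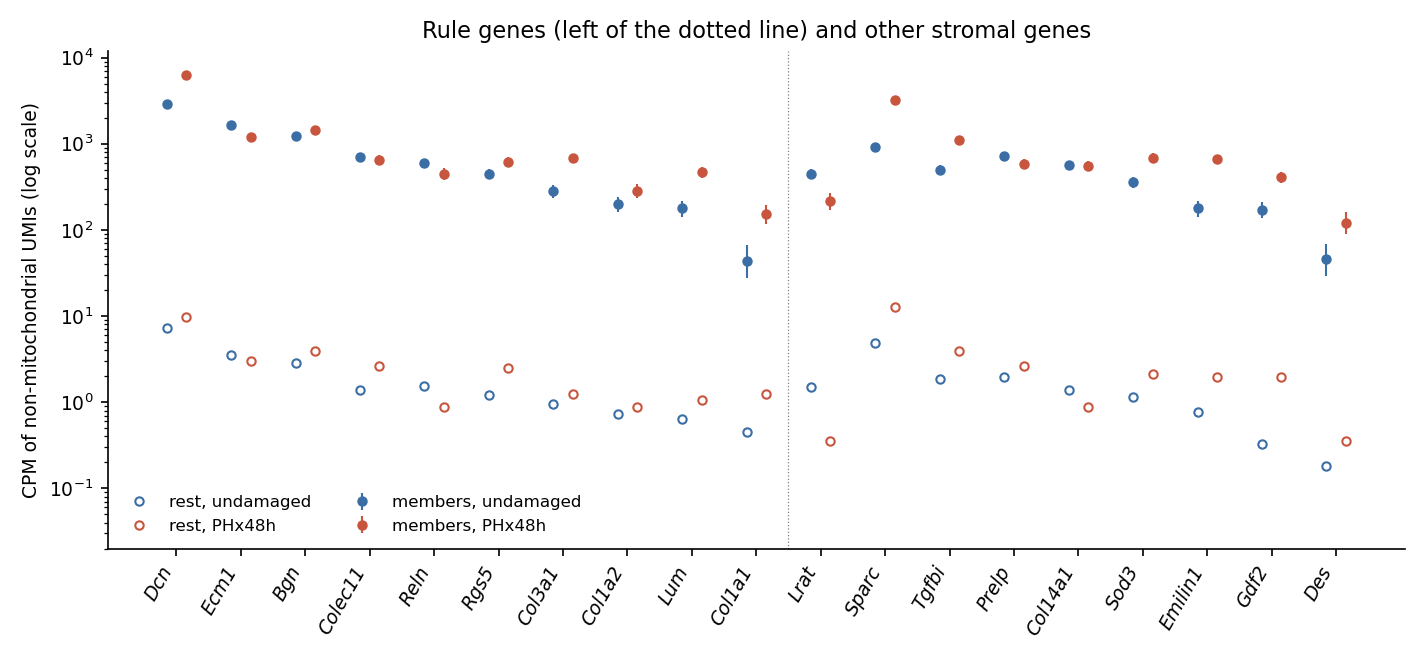
Levels of the 10 rule genes and of 9 other stromal genes in CPM of non-mitochondrial UMIs, on a log scale, in the summed members (filled points, with 95% Poisson intervals) and in the rest (open points) of the undamaged and PHx48h libraries. Every gene shown was higher in members than in the rest of the same library, with Dcn at 2921 and 6250 CPM against 7.31 and 9.72 CPM.

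Most members held genes typical of stellate cells, in part because the rule selected on such genes. At least 1 UMI of Reln, Lrat or Colec11 was found in 180 of 200 undamaged and 54 of 57 PHx48h members, and all 3 genes were found together in 60 and 35. Reln encodes the secreted glycoprotein reelin and Colec11 a soluble lectin, both rule genes typical of stellate cells. Lrat, the one of the 3 outside the rule, was found in 99 of 200 undamaged and 41 of 57 PHx48h members. Of 25 stellate genes outside the rule that were under 10 CPM in the rest of both libraries, the median undamaged member held 6 (0 to 19) and the median PHx48h member 13 (2 to 21). At the low end, 22 undamaged members held 0 or 1 of these genes, and the median of the 10 rule genes among them was 4 UMIs. These shallow barcodes met the rule on few molecules, and the name stellate rests on little in them. Of the 20 undamaged members with none of Reln, Lrat and Colec11, 16 had Dcn, 14 had Ecm1, 8 had Col3a1 and 4 had Col1a1, all of them rule genes.

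Of the genes outside the rule, the 20 with the highest enrichment in members over the rest included genes of pericytes and their matrix. Tgfbi, a secreted matrix adaptor protein, was at 496 and 1117 CPM in undamaged and PHx48h members against 1.88 and 3.89 CPM in the rest. Prelp, a leucine-rich matrix protein, was at 724 and 580 CPM, Col14a1 at 560 and 547 CPM, and Sod3, the extracellular superoxide dismutase, at 357 and 684 CPM. Abcc9, the sulphonylurea receptor subunit found in pericytes, was at 305 and 367 CPM against 58.8 and 46.3 CPM in the barcodes selected by the endothelial rule. Plvap, known best from fenestral diaphragms of endothelium, was at 476 and 1056 CPM in members and at 174 and 216 CPM in the endothelial barcodes. Aqp1, Ehd3, Dnase1l3 and Eng, also among these 20 genes, are endothelial genes and were higher in the endothelial barcodes: Ehd3, for example, was at 855 and 747 CPM in members and at 1431 and 1249 CPM in the endothelial barcodes.

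Many members carried endothelial transcripts. The 8 endothelial genes were at 0 UMIs in 99 of 200 undamaged and 11 of 57 PHx48h members, and reached 38 and 59 UMIs in single members. They exceeded 10% of the stromal UMIs in 92 undamaged and 29 PHx48h members, and 50% or more in 41 and 9. The list of 19 endothelial genes summed to 5658 CPM in undamaged and 5006 CPM in PHx48h members, against 12800 and 12815 CPM in the endothelial barcodes and 41.3 and 39.6 CPM in the rest. Macrophage genes were at 0 UMIs in 148 undamaged and 28 PHx48h members, and the list of 15 macrophage genes summed to 1760 and 967 CPM. Doublets were not removed, and whether these barcodes held 1 cell, cells that stayed attached or free RNA was not tested. Results are therefore also given for the 102 undamaged and 27 PHx48h members whose endothelial and macrophage UMIs were each at most 10% of the stromal UMIs, a set chosen after seeing the data. In the undamaged library these members had a median of 10 stromal UMIs against 27.5 in the other members, and in the PHx48h library 90 against 66, so that the stricter set was poorer in stromal UMIs in the undamaged library alone.

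**Figure D2:**
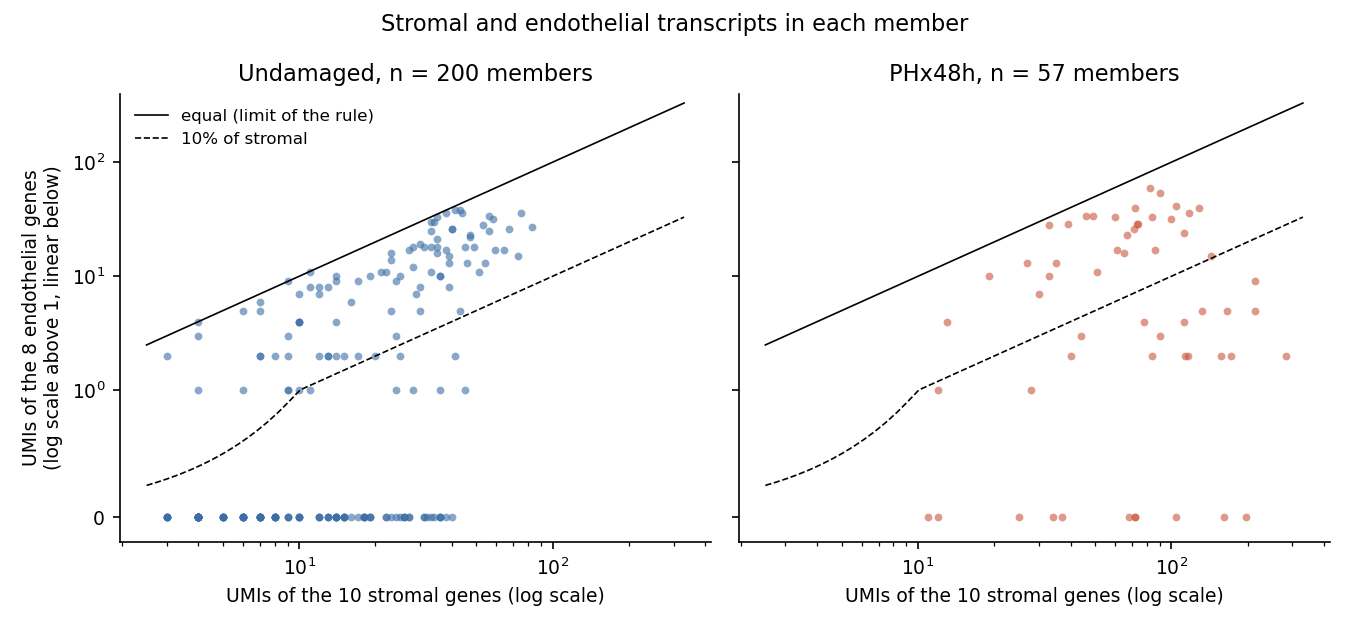
UMIs of the 10 stromal genes (x axis, log scale) and of the 8 endothelial genes (y axis, log scale above 1) in each of the 200 undamaged and 57 PHx48h members, with lines where both are equal and where endothelial UMIs are 10% of stromal UMIs. Members spread from 0 endothelial UMIs (99 and 11 members) up to the limit of the rule.

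Hepatocyte transcripts were present in every member. Alb, which encodes albumin, was detected in 200 of 200 undamaged members with 19 to 186 UMIs and a median of 70, close to the median of 68 in the rest. In PHx48h members it ranged from 28 to 231 UMIs with a median of 66, below the median of 134.5 in the rest. The 30 hepatocyte genes made up a median of 23.1% of the non-mitochondrial UMIs of an undamaged member (5.78 to 33.6) and 8.13% of a PHx48h member (3.08 to 20.5). All 30 genes were lower in members than in the rest of the same library. The median ratio of their CPM was 0.636 in undamaged members, with 0.583 for Cps1 and 0.942 for Hnf4a at the ends, and 0.397 in PHx48h members, with 0.261 for Tat and 0.579 for Cyp2f2. The median ratio was 0.637 and 0.337 in the endothelial barcodes and 0.588 and 0.377 in the macrophage barcodes. The hepatocyte share of a member was thus nearer to that of the rest in the undamaged library, and all other transcripts had less room in its CPM.

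**Figure D3:**
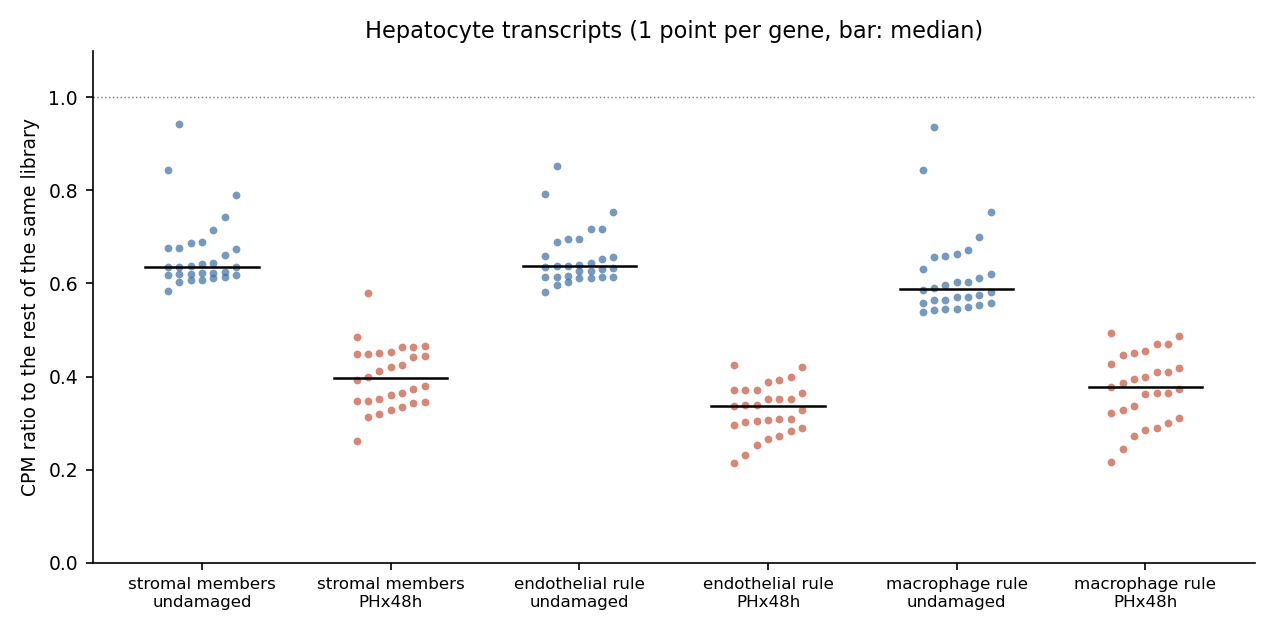
Ratio of CPM in barcodes selected by the stromal, endothelial and macrophage rules to CPM in the rest of the same library for each gene of the hepatocyte list (1 point per gene, bars at the median). Medians were 0.636, 0.637 and 0.588 in the undamaged library and 0.397, 0.337 and 0.377 in the PHx48h library.

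The question of what differed in stellate and stromal cells 48 hours after hepatectomy was addressed by comparing the summed members of the 2 libraries. A gene was called higher or lower when its CPM differed at least 2-fold with 5 CPM added and the exact 95% interval of the ratio, which covers counting error, left out 1. Of 5949 genes with at least 20 UMIs over all members, 1099 (18.5%) were called higher and 705 (11.9%) lower in PHx48h members. These shares are the background for the counts by CPM of every list below. Among the 1259 stromal-enriched genes, those at least 3 times as high in members as in the rest, 296 (23.5%) were called higher and 63 (5%) lower. The enrichment was taken over both libraries together, so a gene could pass it through the PHx48h members alone, and nothing is read from these shares against those of all genes compared. Because the hepatocyte transcripts took up different shares of the 2 libraries, the ratios were also computed per 1000000 excess UMIs. These are the non-mitochondrial UMIs that remain after a fraction equal to the median hepatocyte ratio is taken off, 36.4% of the total in undamaged and 60.3% in PHx48h members. On that scale, which lowers the log2 ratio of a well-covered gene by 0.73, 108 stromal-enriched genes (8.58%) were called higher and 215 (17.1%) lower, so the share of higher calls went from 82.5% to 33.4%. The median log2 ratio of all genes compared was 0.16 by CPM and -0.53 on the excess scale. The overall direction thus depended on the scale. All 63 genes called lower were also called lower on the excess scale, 108 of the 296 called higher were also called higher on it, and no gene was called in opposite directions. The scale multiplies undamaged levels by more than PHx48h levels, so lower calls had to stay lower and higher calls could not turn lower. Only the 108 kept calls are thus a result. In the members with at most 10% endothelial and macrophage UMIs, 222 of the 296 genes were called higher and 4 of the 63 were called lower. The median hepatocyte ratios of that set were 0.826 in undamaged and 0.502 in PHx48h members. All other transcripts thus had even less room in its undamaged CPM, and its CPM ratios lean upward. How many of its calls this changed was not tested. The 4 genes called lower in both member sets were Igfbp3, Ntm, Cped1 and Malat1, and the excess scale could not remove these calls. Malat1, a nuclear long noncoding RNA, was named after its values were seen. Of the genes called higher, 63 kept their call in both member sets and on both scales. These 63 include Msln, Igfbp5, Igfbp6 and S100a6, whose PHx48h UMIs all came from 1 member described below. They also include Slpi and Cxcl10, with 90 of 96 and 21 of 30 UMIs in 1 member each.

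**Figure D4:**
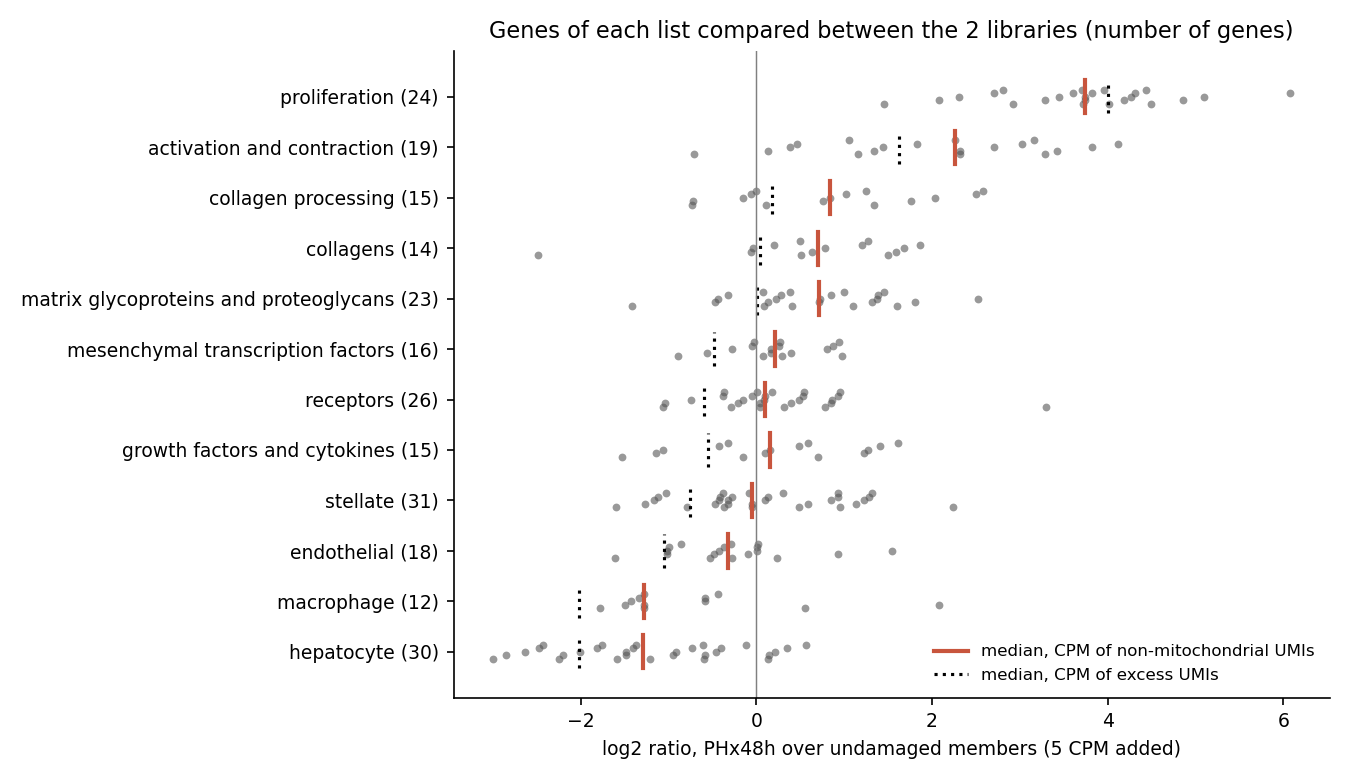
Log2 ratio of CPM in PHx48h over undamaged members, with 5 CPM added, for each gene compared in 12 gene lists (points) with the list median (solid bar) and the median on the excess scale (dotted bar). The proliferation list (median 3.74) and the activation and contraction list (2.27) lay above 0 on both scales, the stellate list lay at -0.05, and the excess scale brought the collagen median from 0.71 to 0.04. The median of all genes compared was 0.16 by CPM and -0.53 on the excess scale.

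Genes of the stellate list went in both directions. Of 32 genes, 31 were compared, 5 were called higher and 5 lower, and the median log2 ratio was -0.05, beside 0.16 for all genes compared and 0.36 for stromal-enriched genes. Among all genes compared 18.5% were called higher and 11.9% lower, so these counts do not set the list apart. On the excess scale the list median was -0.76, beside -0.53 for all genes compared. It was 0.40 over the same genes in members with at most 10% endothelial and macrophage UMIs, so its sign depended on these choices. Colec11 was at 694 CPM in undamaged and 653 CPM in PHx48h members (log2 ratio -0.09, interval -0.32 to 0.15). Reln was at 594 and 446 CPM, and Ecm1, a secreted matrix protein that binds latent TGF-beta complexes, at 1653 and 1195 CPM. Hgf, the hepatocyte growth factor, was at 227 and 243 CPM (log2 ratio 0.10, -0.31 to 0.50). By CPM, a 2-fold difference in either direction was outside this counting interval. On the excess scale the interval shifts down by 0.73 and takes in a 2-fold lower level. The transcription factor genes Lhx2 (91.7 and 88.6 CPM) and Hand2 (124 and 101 CPM) and the low-affinity neurotrophin receptor gene Ngfr (65.8 and 63.3 CPM) were not called either.

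Genes of retinoid storage and breakdown were lower in part. Lrat was lower in PHx48h members, with 85 UMIs in 41 members against 223 UMIs in 99 undamaged members (log2 ratio -1.03, interval -1.42 to -0.68). On the excess scale its ratio was -1.76, and in the members with at most 10% endothelial and macrophage UMIs it was -0.25 and not called. Dhrs3, a retinaldehyde reductase, was lower at 65.8 against 213 CPM (log2 ratio -1.62), but it was also at 163 and 42.2 CPM in the rest. Cyp26b1, which degrades retinoic acid and was among the 10 lowest ratios, was lower at 20.3 against 126 CPM. It was at 219 and 30.8 CPM in the endothelial barcodes, and no Cyp26b1 UMI was found in the members with at most 10% endothelial and macrophage UMIs. Of 13 genes in the retinoid list, 8 were compared, and Lrat and Dhrs3 were the 2 called lower.

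The other stellate genes called lower were Ntm, which encodes the adhesion molecule neurotrimin, Colec10, Adamtsl2 and Hhip, the hedgehog-interacting protein. Ntm was at 277 CPM in undamaged and 88.6 CPM in PHx48h members (log2 ratio -1.59, -2.22 to -1.101) and under 1 CPM in the rest of both libraries. Colec10 (335 and 147 CPM), Adamtsl2 (67.8 and 25.3 CPM) and Hhip (49.8 and 20.3 CPM) were not called in the members with at most 10% endothelial and macrophage UMIs. There the log2 ratio of Hhip was 0.33, at 26.3 CPM in undamaged and 34.5 CPM in PHx48h members. Those called higher included the intermediate filament gene Des (45.9 and 122 CPM), Gdf2 (171 and 408 CPM), the metalloreductase gene Steap4 (337 and 828 CPM) and the interferon-induced Ifitm1 (275 and 608 CPM). None of these 4 was called on the excess scale, where their log2 ratios were 0.41 to 0.66.

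Igfbp3, an IGF-binding protein, was lower in PHx48h members. It had 97 UMIs in 56 of 200 undamaged members and 9 UMIs in 5 of 57 PHx48h members, or 193 CPM (157 to 236) against 22.8 CPM (10.4 to 43.3). The log2 ratio was -2.84 (-4.26 to -2.10), and Igfbp3 was under 1 CPM in the rest of both libraries. After thinning to 1000 UMIs, 17.5% of undamaged members (12.5 to 23.5) and 1.75% of PHx48h members (0.0444 to 9.39) had an Igfbp3 UMI. Igfbp2 (815 and 144 CPM) and Igfbp4 (1382 and 681 CPM) were also lower, but both were abundant in the rest, at 1313 and 362 CPM and at 1632 and 861 CPM. Igfbp7, which is abundant in sinusoidal cells, was at 1216 and 1286 CPM and was not called. All 23 UMIs of Igfbp5 and all 20 of Igfbp6 in the PHx48h members came from 1 member described below.

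Several matrix genes were higher by CPM in PHx48h members. Of 20 collagen genes, 14 were compared, and 6 were called higher and 1 lower, with a median log2 ratio of 0.71. The shares over all genes compared were 18.5% higher and 11.9% lower, with a median of 0.16. The genes called higher were Col1a1, Col3a1, Col4a1, Col4a2, Col5a2 and Col6a1. The members had been selected on Col1a1 and Col3a1. Col1a1, a fibrillar collagen, was low in both libraries, with 22 UMIs in 14 of 200 undamaged members and 60 UMIs in 27 of 57 PHx48h members. That was 43.9 CPM (27.5 to 66.4) against 152 CPM (116 to 196), with 8 of the 22 undamaged UMIs in 1 member. Col3a1 was at 279 and 679 CPM, and the basement membrane collagen gene Col4a1 at 325 and 755 CPM. Col4a1 was at 284 and 622 CPM in the endothelial barcodes. Col1a2 (199 and 286 CPM) and Col14a1 were not called. Col18a1, lower at 50.6 against 307 CPM, was at 518 and 154 CPM in the rest. On the excess scale the list median was 0.04, beside -0.53 for all genes compared. The 2 genes called higher on it were Col1a1 and Col5a2, and in the stricter member set on that scale the median was -0.03.

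Genes for collagen folding and cross-linking were also higher by CPM in part. Of 21 genes, 15 were compared, 7 were called higher and none lower, with a median of 0.84. On the excess scale 4 were called higher and 2 lower, with a median of 0.18, beside -0.53 for all genes compared. Pcolce, the enhancer of procollagen C-proteinase, was at 71.8 CPM (50.3 to 99.4) in undamaged and 453 CPM (389 to 525) in PHx48h members, a log2 ratio of 2.58. Serpinh1, the collagen chaperone HSP47, was at 185 and 638 CPM with a log2 ratio of 1.76, and Loxl2, a lysyl oxidase, at 55.8 and 149 CPM. Fkbp10 (7.97 and 48.1 CPM) and P3h4 (7.97 and 68.4 CPM), both needed for collagen modification in the endoplasmic reticulum, had 4 UMIs each in undamaged members. Pcolce, Serpinh1, Fkbp10 and P3h4 were also called on the excess scale.

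Of 32 genes for matrix glycoproteins and proteoglycans, 23 were compared, 8 were called higher and 1 lower, with a median of 0.72. On the excess scale 2 were called higher and 4 lower, with a median of 0.01, beside -0.53 for all genes compared. Dcn, Ecm1, Bgn and Lum of this list were used by the rule, and Dcn and Lum are among the 8, which leaves 6 called higher outside the rule. Sparc, a collagen-binding matricellular protein, was at 921 CPM (839 to 1009) in undamaged and 3224 CPM (3049 to 3406) in PHx48h members. A Sparc UMI was found in 133 of 200 and in 57 of 57 members, and in the endothelial barcodes Sparc was at 788 and 1779 CPM. Efemp2, a fibulin of elastic fibres, was at 41.9 and 263 CPM, and Emilin1, from the portal fibroblast list, at 177 and 656 CPM. The log2 ratios of Sparc, Efemp2 and Emilin1 were 1.80, 2.52 and 1.86, and all 3 were called in both member sets and on both scales. Dcn had a log2 ratio of 1.096 and 0.37 on the excess scale, Lum, a related proteoglycan, 1.38 and 0.67, and Bgn, also of that family, 0.22 and -0.51. Fn1 was lower at 314 against 845 CPM, but it was at 1119.5 and 386 CPM in the rest. Eln had 7 and 13 UMIs and was not called. In matrix turnover, 9 of 19 genes were compared, with Mmp23 called higher and Adamts5 and Ctsl lower, and the inhibitor gene Timp2 at 138 and 134 CPM. Beside 18.5% higher and 11.9% lower among all genes compared, these counts do not set the turnover list apart.

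Genes of the cytoskeleton and contraction had high ratios in PHx48h members. Of 25 genes, 19 were compared, 15 were called higher and none lower, with a median log2 ratio of 2.27 and of 1.63 on the excess scale, where 11 were called higher and 1 lower. Vim, the intermediate filament vimentin, had 31 UMIs in 26 of 200 undamaged members and 233 UMIs in 51 of 57 PHx48h members, at 61.8 CPM (42.0 to 87.7) and 590 CPM (517 to 671). Lgals1, galectin-1, was at 106 CPM (79.2 to 138) and 1912 CPM (1778 to 2053), a log2 ratio of 4.11. In PHx48h members Lgals1 was found in 56 of 57, with a median of 9 UMIs and 117 of its 755 UMIs in 1 member. Tmsb10 (229 and 1517 CPM), S100a11 (69.8 and 605 CPM) and Anxa2 (79.7 and 418 CPM) were higher as well. Genes of this list were also higher in the endothelial barcodes. Vim was at 58.8 and 653 CPM in the endothelial barcodes, with a log2 ratio of 3.37 beside 3.15 in members, and Lgals1 had 3.38 beside 4.11. In the endothelial barcodes 12 of 15 genes of the list were called higher, with a median of 1.82, and in the macrophage barcodes 7 of 11, with a median of 2.12. The list summed to 239 and 865 CPM in the rest, where S100a11 had a log2 ratio of 3.29, Tmsb10 2.48, Lgals1 2.43 and Anxa2 2.23. Differences between these groups of barcodes were not tested.

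Genes typical of contractile cells were detected in part of the PHx48h members. Tagln, the actin-binding protein transgelin (chr9:45929619-45936058), had 11 UMIs in 10 of 200 undamaged members, at most 2 in 1 member, and 102 UMIs in 32 of 57 PHx48h members, where the highest members had 28 and 18. Its level was 21.9 CPM (10.95 to 39.2) and 258 CPM (211 to 314), with a log2 ratio of 3.29 (2.66 to 4.61) and 2.73 on the excess scale. After thinning to 1000 UMIs, a Tagln UMI was found in 2.0% of undamaged (0.548 to 5.04) and 12.3% of PHx48h members (5.08 to 23.7). These intervals count members of 1 mouse each, so no difference between the conditions is read from them. Tpm2 (17.9 and 241 CPM) and Myl9 (23.9 and 134 CPM), a tropomyosin and a myosin light chain, were higher on both scales. In the endothelial barcodes Tagln, Tpm2 and Myl9 had log2 ratios of 3.36, 2.49 and 2.03, and the smooth muscle list summed to 162 and 524 CPM there. Acta2, the smooth muscle actin that marks myofibroblasts, was at 0 in the 200 undamaged members, which allows a share of members with a UMI of up to 1.5%. It had 11 UMIs in 5 of 57 PHx48h members, at least 4.66-fold higher against a floor of 3 counts over the undamaged members. Of the 11 UMIs, 4 were in the single member with mesothelial genes described below. After thinning to 1000 UMIs, Acta2 was found in 0 of 200 undamaged (0 to 1.83%) and 2 of 57 PHx48h members (0.428 to 12.1%), intervals that overlap. Ctgf, Cyr61, Postn and Actn1 of the same list were compared and not called.

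**Figure D5:**
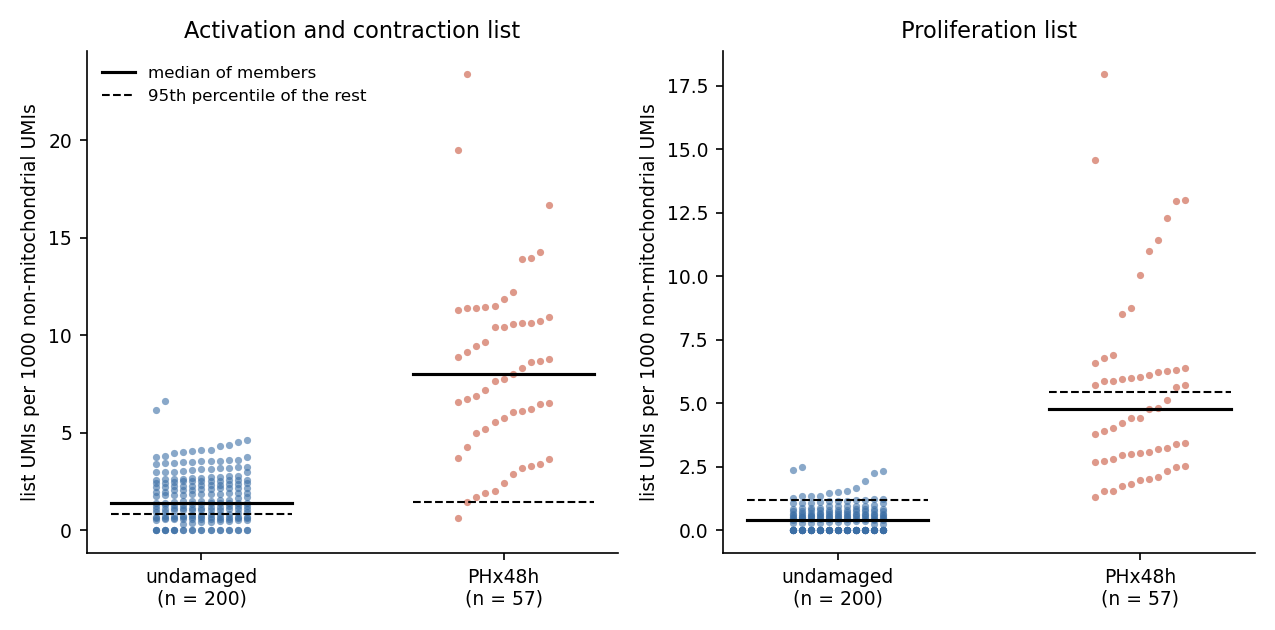
UMIs of the activation and contraction list (left) and the proliferation list (right) per 1000 non-mitochondrial UMIs in each undamaged (n = 200) and PHx48h (n = 57) member, with the member median (solid) and the 95th percentile of the rest of the same library (dashed). The medians were 1.42 and 8.02 for activation and contraction, and 0.424 and 4.77 for proliferation.

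Proliferation genes were higher in PHx48h members. Of 30 genes, 24 had enough UMIs to be compared and all 24 were called higher, with a median log2 ratio of 3.74, or 3.69 with the 6 genes at 0 UMIs in undamaged members placed at their lower bound. The list summed to 540 CPM in undamaged and 6024 CPM in PHx48h members. It also summed to 257 and 2831 CPM in the rest, to 843 and 7582 CPM in the endothelial and to 736 and 5343 CPM in the macrophage barcodes. Top2a, the DNA topoisomerase of dividing cells, had 2 UMIs in 200 undamaged members and 119 UMIs in 39 of 57 PHx48h members, up to 18 in 1 member. At 301 CPM (250 to 361) it was 6.36 times as high as in the PHx48h rest (47.3 CPM). Mki67 (152 CPM) was 3.07 times and the ubiquitin-conjugating enzyme gene Ube2c (139 CPM) 0.954 times as high as in the rest, and Ube2c was at least 23.3-fold higher than in undamaged members. Set against the rest level multiplied by the hepatocyte ratio of 0.397, which gives 18.8 CPM for Top2a, 19.6 CPM for Mki67 and 57.9 CPM for Ube2c, all 3 were higher in members.

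The proliferation transcripts were spread over the PHx48h members. The PHx48h members ranged from 1.30 to 18.0 list UMIs per 1000, with a median of 4.77, against a median of 2.69 and a lowest value of 0.435 in the rest, and 8 members exceeded the highest barcode of the rest. Top2a was found in 18 of the 27 PHx48h members with at most 10% endothelial and macrophage UMIs and in 21 of the other 30. After thinning to 1000 UMIs, 21.1% of PHx48h members (11.4 to 33.9) had a Top2a UMI, compared with 4.34% of the rest (2.97 to 6.11). For Mki67 the same shares were 8.77% (2.91 to 19.3) and 5.04% (3.56 to 6.91), intervals that overlap. Ccnd1, the G1 cyclin D1, had the smallest ratio of the list, at 112 and 314 CPM, and was not called on the excess scale.

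The promoters of these genes are shown because the list moved as a whole. They hold motifs known from genes of the late cell cycle, the CCAAT box and the cell cycle homology region TTTGAA; both were searched on both strands in the RefSeq windows from 250 bases before to 50 bases after the start (GRCm38.p6). Of 30 proliferation genes, 24 had such a window. TTTGAA was found in 13 of the 24 (54.2%), against 20.2% of all 27025 genes with a window, and CCAAT in 19 (79.2%), against 41.1%. Both were found in the same 13 genes, among them Top2a, Cdk1, Ube2c, Mki67, Ccnb2, Cenpf and Prc1, against 7.97% of all genes. A match is a description of the letters and not of binding. The 250 bases before the start of 3 of the 13 genes follow, 5′ to 3′, with every match to either motif in capitals; matches on the opposite strand read TTCAAA and ATTGG, and in Ube2c matches to CCAAT on both strands overlap.
Top2a (chr11:99024190-99024439, minus strand): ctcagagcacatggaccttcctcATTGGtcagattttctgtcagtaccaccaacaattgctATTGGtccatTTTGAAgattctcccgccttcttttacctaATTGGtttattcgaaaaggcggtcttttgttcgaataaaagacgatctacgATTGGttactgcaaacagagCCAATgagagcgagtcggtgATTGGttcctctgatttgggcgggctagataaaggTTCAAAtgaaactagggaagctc
Cdk1 (chr10:69352913-69353162, minus strand): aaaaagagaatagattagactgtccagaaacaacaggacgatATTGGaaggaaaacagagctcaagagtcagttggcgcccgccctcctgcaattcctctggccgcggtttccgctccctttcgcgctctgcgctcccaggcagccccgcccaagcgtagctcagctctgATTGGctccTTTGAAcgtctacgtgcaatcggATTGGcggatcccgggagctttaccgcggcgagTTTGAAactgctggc
Ube2c (chr2:164769679-164769928, plus strand): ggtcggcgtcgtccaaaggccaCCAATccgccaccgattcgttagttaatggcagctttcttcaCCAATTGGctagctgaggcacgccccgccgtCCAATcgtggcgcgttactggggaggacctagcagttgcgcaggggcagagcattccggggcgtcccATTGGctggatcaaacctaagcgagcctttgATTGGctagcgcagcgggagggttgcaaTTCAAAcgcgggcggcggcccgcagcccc
The Top2a window held 6 matches to CCAAT and 2 to TTTGAA, the Cdk1 window 3 and 2, and the Ube2c window 6 and 1. The 3 genes had 119, 66 and 55 UMIs in PHx48h members and 2, 2 and 0 UMIs in undamaged members. For comparison, a CArG box was found in 1 of 19 windows of activation and contraction genes, that of Myl9, against 1.81% of all genes.

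Of 39 genes for growth factors and cytokines, 15 were compared, and Gdf2, Bmp4, Tgfb1 and Il34 were called higher and Vegfa, Wnt4 and Igf1 lower, with a median log2 ratio of 0.15. Among all genes compared 18.5% were called higher and 11.9% lower, with a median of 0.16. Tgfb1 was at 59.8 and 167 CPM in members and at 73.5 and 149 CPM in the endothelial barcodes. Il34, a ligand of the macrophage receptor Csf1r, was at 13.96 and 53.2 CPM in members and under 1 CPM in the rest. Wnt4 was at 61.8 and 25.3 CPM. Igf1 and Vegfa were higher in the rest than in members in both libraries. None of the 4 genes called higher was called on the excess scale. Rspo3, an amplifier of Wnt signalling, was at 193 and 294 CPM, and the chemokine gene Cxcl12 at 1063 and 788 CPM, and neither was called.

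Of 31 receptor genes, 26 were compared, and Cd63, a tetraspanin and receptor for Timp1, was called higher at 37.9 against 418 CPM, on both scales. Itgb5 was called lower at 47.8 against 20.3 CPM. As shares of the 26 genes, these calls lay below the 18.5% higher and 11.9% lower of all genes compared. The PDGF receptor genes Pdgfra (53.8 and 109 CPM) and Pdgfrb (87.7 and 162 CPM) had log2 ratios of 0.95 and 0.85 and were not called. On the excess scale 1 receptor gene was called higher and 5 lower. In the members with at most 10% endothelial and macrophage UMIs 9 were called higher and 1 lower by CPM, and 1 higher and 10 lower on the excess scale, so the direction of the receptor list depended on the scale. None of the 16 mesenchymal transcription factor genes compared was called by CPM over all members, and 2, Zeb1 and Zeb2, were called lower on the excess scale. In the stricter member set 4 were called higher by CPM and 3 lower on the excess scale. The largest difference among them was that of Mef2c, with a log2 ratio of 0.97, and the lowest that of Zeb2, at 433 and 230 CPM with -0.89. Zeb1 had 33 and 17 UMIs. Of the hedgehog pathway, 3 of 13 genes had enough UMIs, Hhip was called lower, and Ptch1 (21 and 7 UMIs) and Gas1 (21 and 10 UMIs) were not called. Without the single PHx48h member with mesothelial genes described below, both were called lower, Gas1 at 10.3 against 41.9 CPM (log2 ratio -1.62) and Ptch1 at 15.4 against 41.9 CPM (-1.20).

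Inflammatory and complement genes went both ways, and several followed the rest. Lcn2, an acute-phase lipocalin, had 2 UMIs in undamaged members and 150 UMIs in 46 of 57 PHx48h members. It was at 380 CPM in PHx48h members and at 856 CPM in the rest, a ratio of 0.444 that lay within the range of the hepatocyte genes. C1s1, C4b and H2-K1 were lower in members and also lower in the rest. Ifitm3 was higher at 2664 against 1033 CPM and Vcam1 at 104 against 29.9 CPM. Cxcl10 was higher at 76.0 against 12.0 CPM, with 21 of its 30 UMIs in 1 member. Cd74, which encodes the invariant chain of class II major histocompatibility complexes, was lower at 32.9 against 199 CPM. Of 12 immediate early and stress genes compared, Jund and Zfp36 were lower and none was higher, with Jun at 73.8 and 78.5 CPM. With 11.9% of all genes compared called lower, the lower calls do not set this list apart.

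Of lists for other cell types, the T, NK and B list summed to 35.9 CPM in undamaged and 0 CPM in PHx48h members, the neutrophil list to 3.99 and 0 CPM, the cholangiocyte list to 9.97 and 48.1 CPM, and none of their genes was compared. In the erythroid and platelet list Pf4 was higher, with 32 UMIs in 19 PHx48h members against 7 UMIs in 7 undamaged members, and Alas2 was lower. Among 12 macrophage genes compared, 7 were called lower and 1 higher with a median of -1.27, and among 18 endothelial genes 3 were called lower and 1 higher with a median of -0.33. The rule limited both kinds of transcript directly, and 5 of the 12 and 8 of the 18 genes were used by it. In the members with at most 10% endothelial and macrophage UMIs the medians by CPM were 1.21 and 1.001, and no gene of either list was called lower. On the excess scale in that set the medians were 0.35 and -0.24, with 1 endothelial gene called higher and 2 lower. That set limits the same transcripts again, in proportion to stromal UMIs, whose median was 10 in its undamaged and 90 in its PHx48h members. The limit thus allowed more of these transcripts in a PHx48h member, and nothing is read from the medians and calls of these 2 lists. The portal fibroblast list had 3 of 7 genes called higher, Emilin1, the rule gene Lum, and Igfbp6, which was found in 1 PHx48h member. The smooth muscle list had 3 of 6, Tagln, Tpm2 and Myl9.

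A single PHx48h member carried mesothelial genes. It held 6730 UMIs, 13.8% of them mitochondrial, and 34 UMIs of 5 rule genes, 8 of them Dcn. All 34 UMIs of Msln, the mesothelial surface protein mesothelin, in the PHx48h members were in this barcode, with 7 of Upk1b, 5 of Upk3b, 4 of Krt19 and 1 of Wt1. It also held 90 of 96 Slpi UMIs, all 26 of S100a6, 160 of 633 of C3 and 20 of 36 of Gas6, and no UMI of Reln, Lrat or Colec11. The calls of Msln, S100a6, Igfbp5 and Igfbp6 as higher rested on it. Slpi was still called higher without it, with a log2 ratio of 2.03 in place of 5.63, and without it the median of the activation and contraction list was 2.04.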

How the data were processed

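Hepatocyte preparations of 1 undamaged and 1 PHx48h mouse liver were sequenced on the 10x Single Cell 3′ platform. The deposited matrices hold UMI counts per gene and barcode for 27998 genes, which the authors made with Cell Ranger on mm10; the Cell Ranger version is not given in the sources used here. The counts are not normalized, and reads fall near the 3′ end, so levels were not scaled by length. Groups came from the sample labels.

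Members were found by the rule given above, and their counts were summed per library. CPM are per 1000000 non-mitochondrial UMIs, 13 mitochondrial genes being left out. Ratios used 5 CPM added to both sides and genes with at least 20 UMIs over both libraries. Intervals are exact at 95% (Poisson for levels, Clopper-Pearson for shares, conditional binomial for ratios) and cover counting error only. With 1 library per group there was no test, and cells were not treated as replicates. No doublet caller was run.

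The members and gene lists were chosen with earlier results of these data known. Genes were named when they belonged to the rule or its markers, were called in a list, were among the 4 list genes with the most UMIs, were used by the study as stromal markers, or were among the 20 most enriched or the 10 highest and 10 lowest ratios. Hgf, Lhx2, Hand2, Ngfr, Pdgfra, Pdgfrb, Mef2c, Actn1, Ctgf, Cyr61, Postn and Malat1 were named after their values were seen. Gene coordinates are from GENCODE M21 on mm10 and promoters from RefSeq. The alternatives were other limits of the rule, other scalings including TMM, other pseudocounts and count minimums, single-barcode means, a stricter limit on endothelial and macrophage UMIs and the excess scale, the last 2 added after seeing the data. Some genes of the lists are counted but not reported here by name. Scripts were tested on simulated counts and ran in Python 3.11.15 with numpy 2.4.6, scipy 1.17.1, pandas 2.3.3 and matplotlib 3.10.9, and R 4.3.3 with edgeR 4.0.16 for TMM factors.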

Additional observations from a re-analysis of the deposited data

Results flagged for a closer look

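In the undamaged library 8 barcodes above the mitochondrial limit met every other condition of the rule and were not used. Their lowest mitochondrial share was 38.0%, against 23.8% for the highest member. In the PHx48h library there were 2 such barcodes, with a lowest share of 72.8%.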

How the results depend on the processing

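With 1 library per group no replicate could be left out, and the error between animals is unknown. No paired analysis was possible because each group holds 1 library. The number of undamaged members was 131 with a stromal share of at least 0.5%, 164 with at least 4 stromal genes, 157 with stromal UMIs at least 2 times the endothelial and macrophage UMIs, 163 after thinning, and 102 with endothelial and macrophage UMIs of at most 10%, where 27 PHx48h members were left. The 63 stromal-enriched genes called lower became 14 with the 2-fold limit, 29 with means of single-barcode CPM, 29 with 20 CPM added, and 5 in the 10% set. With at least 50 UMIs, the genes higher in stromal members at 48 h were 646 and those lower 443, 162 and 32 of them stromal-enriched, since fewer genes were compared. On the excess scale 360 genes were called higher and 1743 lower, 108 and 215 of them stromal-enriched. The medians of the stellate and collagen lists were -0.76 and 0.044 there, beside -0.53 for all genes compared. In the 10% set 464 genes were called lower, the medians of the collagen processing and activation lists were 1.99 and 3.19 over the genes compared there, and the hepatocyte ratios were 0.826 and 0.502. With 20 CPM added the proliferation median was 2.36. The cause of the other shifts was not tested. TMM set the median of all genes to 0.00 in place of 0.16. Of 194 named genes with a ratio, 114 moved beyond their counting interval on the excess scale, 65 in the 10% set, 30 without the hepatocyte and most abundant genes and 18 with TMM. Genes under 20 UMIs in all were not compared.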

Other observations

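Genes of antigen presentation by class II major histocompatibility complexes were among the lowest ratios of the stromal-enriched genes. H2-Eb1 had 54 UMIs in 25 undamaged members, up to 10 in 1 member, and 2 UMIs in PHx48h members. H2-Ab1 went from 85.7 to 7.60 CPM and H2-Aa from 99.7 to 20.3 CPM. In barcodes selected by the macrophage rule H2-Eb1 was at 671 and 71.6 CPM. In the members with at most 10% endothelial and macrophage UMIs, H2-Eb1 was at 21.1 and 0 CPM, and none of the 3 genes was called.

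Fcna, which encodes the lectin ficolin A, was at 546 and 451 CPM in undamaged and PHx48h members, at 155 and 103 CPM in the endothelial and at 829 and 501 CPM in the macrophage barcodes. Ifi27l2a, an interferon-induced gene, was higher in PHx48h members at 1041 against 285 CPM, with a log2 ratio of 1.85, and 1.14 on the excess scale. It was also called higher in the members with at most 10% endothelial and macrophage UMIs, at 1258 against 195 CPM. Among replication-dependent histone genes, Hist1h2ap had no UMI in undamaged members and 159 UMIs in 33 PHx48h members, at least 67.3-fold higher against a floor of 3 counts over the undamaged members.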
